A study of Mus musculus with 6 samples.

Results

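The genes described here encode the protein machinery of oxidative phosphorylation, read in T helper type 9 (Th9) cells with and without Cul5. Members were all entries of the gene-level expression table whose names start with Nduf, Uqcr, Atp5 or Cox4 to Cox8, together with Sdha to Sdhd, Cyc1 and Cycs. This gave 85 of 11242 entries. They comprised 36 subunits of complex I, 4 of complex II, 9 of complex III, 10 of complex IV, 15 of complex V and the electron carrier cytochrome c. A further 10 took their names from the same prefixes but are not subunits, namely 7 complex I assembly factors (Ndufaf1 to Ndufaf7), Cox7a2l, Atp5s and Atp5sl. Beside the names, presence in that table was the only condition of the rule.

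Complexes I and II pass electrons from NADH and succinate to ubiquinone, complex III passes them to cytochrome c, and complex IV hands them to oxygen. Complexes I, III and IV pump protons across the inner mitochondrial membrane as they do so, and complex V, the ATP synthase, makes ATP as the protons flow back. Almost all subunits are encoded in the nucleus and imported, while a few at the core of complexes I, III, IV and V are made inside the organelle from mitochondrial DNA, so that each of these complexes draws on both genomes. Naive T cells that are activated enlarge their mitochondria and raise respiration as they begin to divide.

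RNA-seq was performed on naive CD4+ T cells of C57BL/6 mice (labelled as spleen, while the study's methods for naive cells name spleen and lymph nodes), activated with anti-CD3 (2 µg/ml) and anti-CD28 (1 µg/ml) and held for 48 h with IL-4 (20 ng/ml), TGF-β (2.5 ng/ml) and anti-IFN-γ (10 µg/ml), the conditions that direct cells towards the Th9 fate. The 3 WT samples came from controls without CD4-Cre, which by the study's methods were Cul5fl/fl littermates in most experiments. The 3 Cul5 cKO samples came from Cul5fl/flCD4-Cre mice, in which Cre under the CD4 promoter removes exons 9 to 11 of Cul5, the scaffold of a ubiquitin ligase, from T cells at the stage when thymocytes carry both CD4 and CD8. Naive CD4+ T cells were used from mice of 8 to 10 weeks. The labels do not say whether each sample was 1 animal or a pool, so p-values measure the spread between these samples only.

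Cul5 was at 64.4, 69.3 and 65.0 CPM (TMM-scaled counts, relative to the library total) in WT replicates 1, 2 and 3, and at 10.6, 14.2 and 13.1 CPM in the corresponding Cul5 cKO samples, which on the log2 scale is -2.39 ± 0.11 (SE; edgeR quasi-likelihood test, Benjamini-Hochberg adjusted p = 0.000992). Library totals lay between 23111689 and 23454552 counts in 5 samples, whereas WT replicate 3 held 3944803. Every member had at least 50 estimated counts in each of the 5 deeper libraries, but in WT replicate 3 the lowest member, Atp5s, had only 11. The 5 T cell markers (Cd3e, Cd3g, Cd4, Trac and Lck) were abundant, but 5 of 5 had a log2 fold change below 0, with a median of -0.09. At an unadjusted p under 0.05, where 10.4% of all genes were lower, 2 of these markers were lower. Their summed level was 1413 to 1644 TPM (transcripts scaled for length and depth) in WT and 1296 to 1447 TPM in Cul5 cKO. Cd3e and Cd3g had values of -0.34 ± 0.08 and -0.35 ± 0.09 (adjusted p = 0.0987 and 0.112, edgeR quasi-likelihood test), and Cd4 stood at 440 to 470 CPM over the 6 samples. The summed level of 5 B cell markers was 17.7 to 22.5 TPM in WT and 8.03 to 38.8 TPM in Cul5 cKO. Myeloid markers summed to 1.64 to 6.89 TPM in WT and 1.30 to 8.52 TPM in Cul5 cKO, CD8 T cell markers to 5.12 to 6.61 and 4.29 to 8.81 TPM, and NK cell markers to under 1 TPM in each sample. The 6 erythroid markers summed to 2.97, 0.81 and 0.00 TPM in WT and to 4.02, 8.21 and 3.08 TPM in Cul5 cKO, without overlap. The part of other cells in the results below was not tested. In bulk RNA, a change in the number of cells of a type and a change in RNA per cell cannot be told apart.

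Oxidative phosphorylation transcripts were abundant. TPM corrects for transcript length and so allows genes to be compared. The 75 members that encode a subunit or cytochrome c, all nuclear genes, made up 1.72% to 2.03% of all transcripts in a sample. The 13 subunits encoded by mitochondrial DNA, which are no members, made up 7.93% to 9.44% and are not in the sums below. Of the nuclear subunits, those of complex V were the most abundant set by sum, at 6313 ± 359 TPM in WT and 6774 ± 98.7 TPM in Cul5 cKO (SD, n = 3 each). Next came complex I with 4924 ± 464 and 5107 ± 199 TPM and complex IV with 4302 ± 477 and 4664 ± 135 TPM. Complex III stood at 2305 ± 228 and 2500 ± 54.6 TPM. Complex II, which has 4 subunits, summed to 663 ± 21.8 and 658 ± 28.9 TPM. The lowest sums of complexes I, III, IV and V, and the lowest share, 1.72%, were those of WT replicate 3. Some short transcripts had a low TPM there beside their counts. Atp5e was at 45.2 CPM and 285 TPM in WT replicate 2, but at 46.8 CPM and 209 TPM in WT replicate 3. The part of this library in the differences between TPM sums was not tested.

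**Figure D1:**
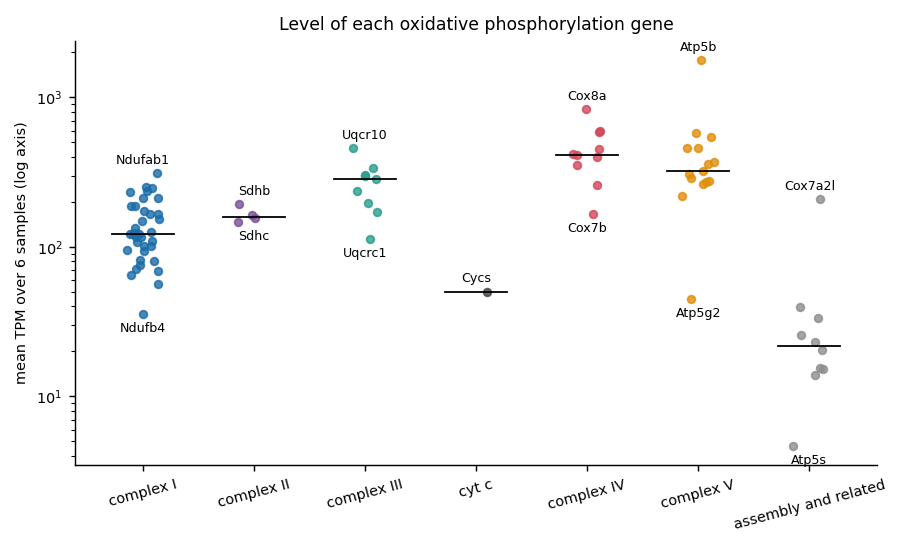
Mean level of each of the 85 genes over the 6 samples, in TPM on a log axis, grouped by complex, with the median of each group as a line. The highest point is Atp5b at 1779 TPM and the lowest is Atp5s at 4.69 TPM, and most subunits of complexes III, IV and V lie above most of complex I.

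Nuclear subunits of 1 complex were not at 1 level. In complex I the mean over the 6 samples ran from 35.5 TPM for Ndufb4 to 312 TPM for Ndufab1, the acyl carrier protein that also serves mitochondrial fatty acid synthesis. The complex II subunits lay close together, from 148 TPM for Sdhc, a membrane anchor, to 194 TPM for Sdhb, the iron-sulfur subunit, a span of 1.31-fold. Complex III ran from 113 TPM (Uqcrc1) to 462 TPM (Uqcr10), and complex IV from 165 TPM (Cox7b) to 840 TPM (Cox8a). Complex V had the widest span, 39.5-fold, from Atp5g2 at 45.0 TPM to Atp5b, the catalytic β subunit, at 1779 TPM. Reads of Atp5g2 are shared with a pseudogene, and without it the lowest was Atp5k at 218 TPM, a span of 8.18-fold. Cycs stood at 50.3 TPM. The assembly factors, which build complex I and then leave it, were at 13.9 to 39.4 TPM, all below the median complex I subunit (122 TPM).

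Several subunits exist in a general form and a form of certain tissues, and here the general form carried nearly all reads. Cox4i1, Cox6a1, Cox6b1, Cox7a2 and Cox8a were at 600, 588, 400, 259 and 840 TPM. Their tissue forms Cox4i2, Cox6a2, Cox6b2, Cox7a1 and Cox8b, which were no entries of the gene-level table, had at most 24 estimated counts in any sample, and Cox8b and Cox8c had 0 in all 6, which allows up to 0.76 CPM in WT replicate 3 and up to 0.13 CPM in each other library (3 counts, counting error only). Ndufa4l2, the hypoxia-responsive relative of Ndufa4, had at most 3 counts. Ndufa4 itself, now assigned to complex IV, Atp5mpl, Ndufb1-ps and Ndufaf8 were also outside the gene-level table and therefore no members, but they were read well by kallisto, and their log2 fold changes were 0.08, 0.10, 0.11 and 0.08, with adjusted p of 0.72, 0.57, 0.64 and 0.85 (edgeR quasi-likelihood test).

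The 85 genes were then compared between Cul5 cKO and WT, in a fit over all 12925 genes that passed the count filter. All 85 members passed it. Their differences were small and lay mostly on 1 side. 0 of the 85 reached an adjusted p under 0.05, where 1.03% of all genes did (133 of 12925; Benjamini-Hochberg over all genes, edgeR quasi-likelihood test). The same count was 2 with DESeq2 (Atp5d and Cox5a), where 2.79% of all genes were called higher, and 0 with limma on the deposited log2 CPM. At an unadjusted p under 0.05, 14 members were higher and 0 lower, 16.5% of the 85 against 10.9% of all genes higher and 10.4% lower. The 14 were Ndufab1 and Ndufs7 of complex I, the assembly factor Ndufaf4, Cyc1, Uqcrc1, Uqcrfs1 and Uqcrq of complex III, Cox4i1, Cox5a and Cox8a of complex IV, and Atp5b, Atp5d, Atp5g1 and Atp5g3 of complex V, and some of them are described below because of these values.

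In 72 of the 85 the fitted log2 fold change was above 0 (84.7%, against 48.8% of all genes), and the median was 0.10 on the log2 scale, against -0.01 for all genes. In this edgeR fit the range was narrow, from -0.21 (Atp5sl) to 0.47 (Cycs). For 76 of the 85 the whole 95% interval of this fit lay within ±0.5 on the log2 scale, and the median width of the interval to either side was 0.21. With limma on the deposited log2 CPM the range was wider, from -0.59 (Atp5s) to 1.004 (Ndufs4), with Cyc1 at 0.65 and Cycs at 0.48. There WT replicate 3 was low in Ndufs4 (WT at 4.03, 3.78 and 1.18 log2 CPM) and in Cyc1 (WT at 7.16, 7.11 and 5.85). In 16 members (18.8%) the 3 Cul5 cKO samples were all above the 3 WT samples, where 14.0% of all genes were so. In 1 member, Atp5sl, they were all below, where 13.5% of all genes were.

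**Figure D2:**
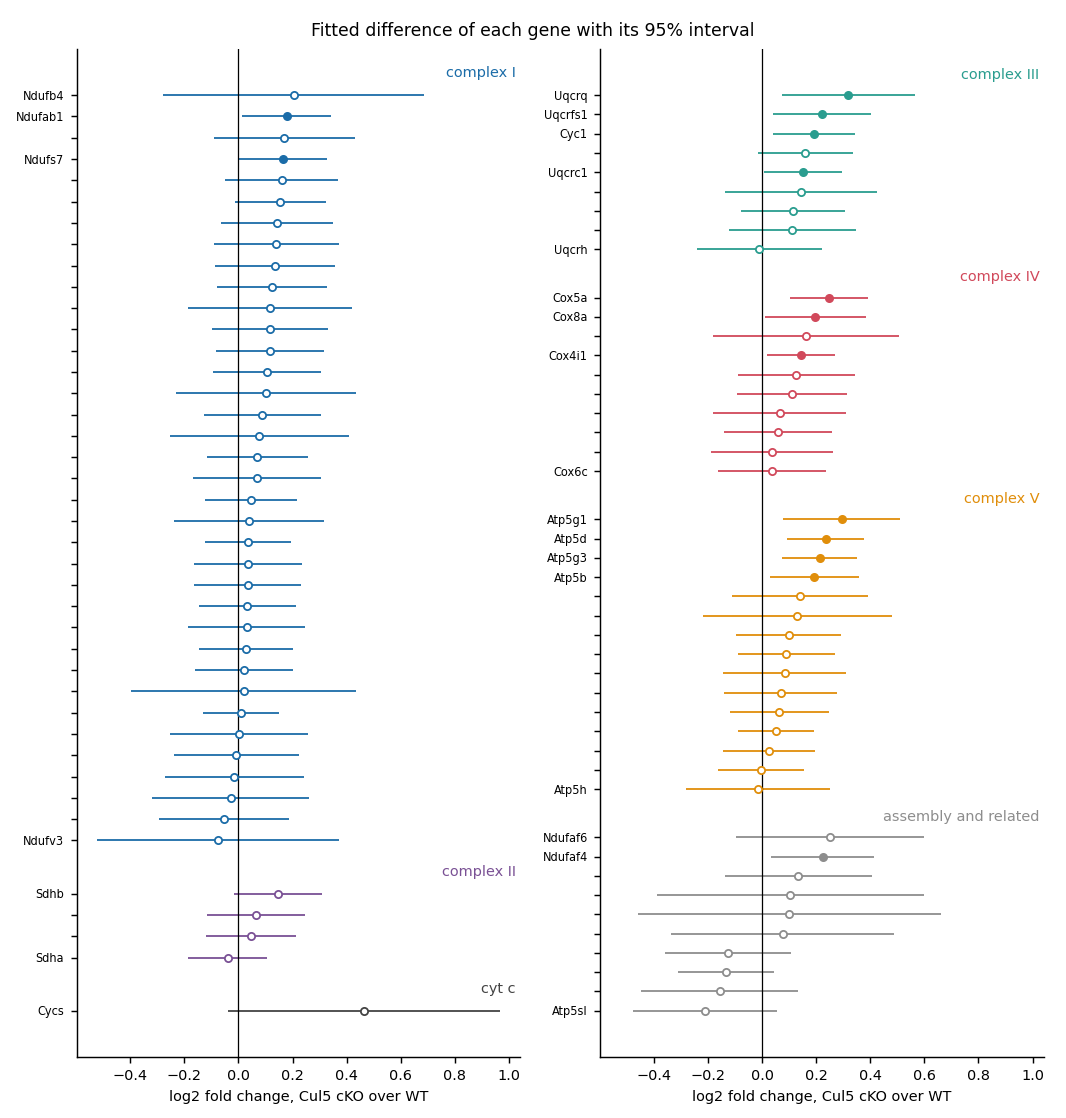
Fitted log2 fold change of Cul5 cKO over WT for each of the 85 genes with its 95% interval, sorted within each complex, with names for the filled points and for the first and last of each group; filled points have an unadjusted p under 0.05 in the edgeR quasi-likelihood test, and none has an adjusted p under 0.05. Points lie right of 0 for 72 genes, and the 14 filled points are all to the right.

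The size of the difference depended on which WT samples were used. WT replicate 1 had the highest level of the 3 WT samples in 77 of 85 members (90.6%), against 39.3% of all genes, and it was the highest of all 6 samples in 43. The median member stood 0.10 above its own mean over the 6 samples in WT replicate 1 on the log2 scale, but 0.13 below it in WT replicate 2 (-0.13) and 0.11 below in WT replicate 3 (-0.11). In Cul5 cKO replicates 1, 2 and 3 the median deviations were 0.08, 0.02 and 0.06. By this measure WT replicate 1 stood with the Cul5 cKO samples, and only WT replicates 2 and 3 stood below them. The median deviation of all genes was between -0.01 and 0.01 in each sample. Cul5 cKO replicate 1 was above the mean of Cul5 cKO replicates 2 and 3 in 63 of 85 members, by a median of 0.05 over the members. Of all 12925 genes 6555 were so. WT replicate 1 was above the mean of WT replicates 2 and 3 in 82 members, by a median of 0.21, and in 6318 of all genes. Hbb-bt, the only erythroid marker that passed the count filter, was also highest in WT replicate 1 among WT (0.34, 0.04 and 0.00 CPM, against 0.74, 0.74 and 0.62 CPM in Cul5 cKO), where 3 counts in WT replicate 3 amount to 0.76 CPM. The part of erythroid RNA in the members' pattern was not tested.

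Without WT replicate 1, the median of the members was 0.19 and 81 were above 0, without WT replicate 2 it was 0.03 with 56 above 0, and without WT replicate 3 it was 0.05 with 67 above 0. In each of these fits 0 members had an adjusted p under 0.05, where 316, 2 and 2 of all genes tested did (edgeR quasi-likelihood test). With replicates 2 and 3 alone the median was 0.16, 79 of 85 were above 0 and 5 were called higher (Atp5b, Cox8a, Ndufa12, Ndufaf4 and Uqcrq; 4.38% of all genes were called higher there). When the difference of replicate 1 from the others was a term, 4 were called higher (Atp5b, Atp5d, Atp5g3 and Cox5a), with 7.17% of all genes.

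**Figure D3:**
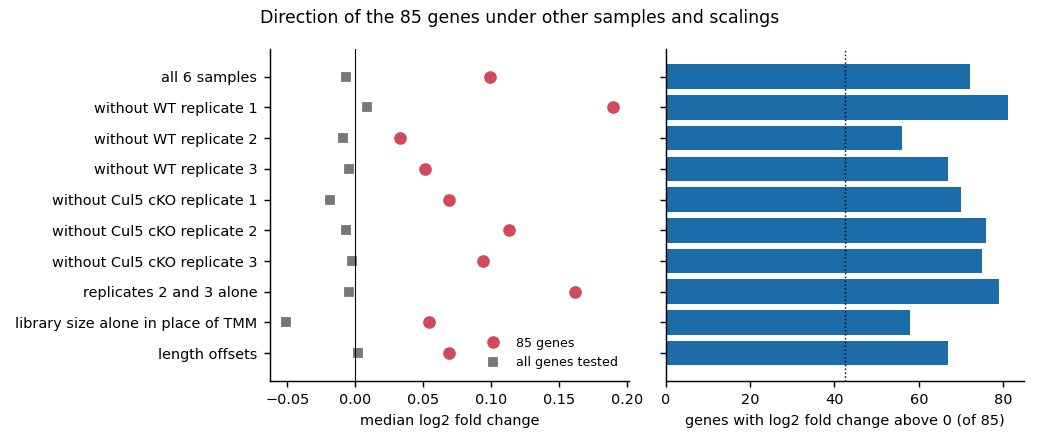
Left, the median log2 fold change of the 85 genes (circles) and of all genes tested (squares) with all 6 samples, without each sample in turn, with replicates 2 and 3 alone, and under other scalings; right, the number of the 85 above 0, with the dotted line at the middle. The circles lie between 0.03 and 0.19 and the bars between 56 and 81.

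Member transcripts are short, with a median length of 720 bases against 2268 bases for all genes, and offsets for length brought the samples closer together. With offsets that remove a smooth trend of each sample on length, the median deviation of the members was 0.05 in WT replicate 1, -0.06 in replicate 2 and -0.08 in replicate 3, and the median log2 fold change was 0.07, with 67 of 85 above 0. Scaled by library size alone, the members had a median of 0.05 with 58 above 0, while the median of all genes was -0.05. The part of transcript length or of scaling in the difference was not tested further.

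**Figure D4:**
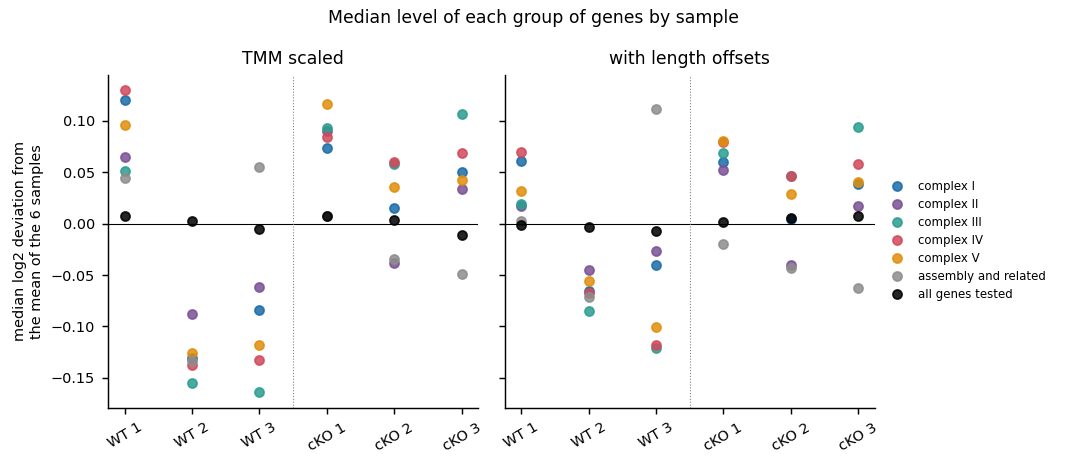
Median log2 deviation of the genes of each group from their mean over the 6 samples, by sample, scaled by TMM (left) and after offsets for transcript length (right). Complexes I to V are above 0 in WT replicate 1 and below 0 in WT replicates 2 and 3 in both panels, and all genes tested (black) stay near 0.

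Complex I, the NADH dehydrogenase, is the largest of the complexes. The median of its 36 members was 0.07 on the log2 scale, 31 were above 0, and 2 had an unadjusted p under 0.05 (Ndufab1 and Ndufs7). Of all genes 10.9% were higher at that threshold, which is the share to set beside this count and those of the complexes below. All 36 were higher in WT replicate 1 than in WT replicates 2 and 3.

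Ndufab1 (ENSMUSG00000030869, chromosome 7, 122085403 to 122101886) was at 76.7, 74.2 and 74.1 CPM in WT and 89.7, 79.0 and 86.0 CPM in Cul5 cKO. The groups did not overlap, and the fitted log2 difference was 0.18 ± 0.07 (adjusted p = 0.206, edgeR quasi-likelihood test). Ndufs7, a core subunit next to the quinone site, was at 65.5, 58.6 and 64.0 CPM in WT and at 72.2, 70.0 and 68.4 CPM in Cul5 cKO, again without overlap, at 0.16 ± 0.07 (adjusted p = 0.228). Ndufb4, the member with the lowest TPM in complex I, had the largest fitted difference of the complex, 0.20 ± 0.21, with WT samples at 18.6, 17.4 and 9.62 CPM and Cul5 cKO samples at 19.7, 17.2 and 17.9 CPM. It shares its sequence with Ndufb4c, which held 140% as many counts, so the split of reads between them is uncertain. Together they gave 45.2, 37.4 and 31.1 CPM in WT and 47.6, 43.3 and 42.9 CPM in Cul5 cKO. At the other end, Ndufv3 was at 68.5, 45.8 and 53.9 CPM in WT and 66.8, 45.9 and 47.4 CPM in Cul5 cKO. Both replicates 1 were high, and the log2 fold change was -0.08 with a 95% interval from -0.52 to 0.37.

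Among the complex I assembly factors 5 of 7 were above 0. Ndufaf4 (chromosome 4, 24898083 to 24905001) was at 49.0, 43.8 and 45.3 CPM in WT and 49.9, 54.1 and 57.6 CPM in Cul5 cKO, with a log2 fold change of 0.22 ± 0.08 (adjusted p = 0.184, edgeR quasi-likelihood test). It was the 1 assembly factor without overlap between the groups. Ndufaf6 had a fitted value of 0.25 ± 0.15, and Ndufaf5 and Ndufaf7 had values of -0.16 ± 0.12 and -0.13 ± 0.10, with intervals that all included 0.

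Complex II, succinate dehydrogenase, is at the same time an enzyme of the TCA cycle, and all its subunits come from nuclear genes. Of its 4 members 0 passed either threshold, and 3 were above 0, with a median of 0.06 that was -0.03 with limma on TPM. Sdha, which carries the flavin and oxidises succinate, was at 306, 283 and 284 CPM in WT and 296, 275 and 277 CPM in Cul5 cKO, a log2 fold change of -0.04 with an interval from -0.19 to 0.11. Sdhb was at 136, 121 and 121 CPM in WT and 141, 138 and 141 CPM in Cul5 cKO, so that the groups did not overlap, at 0.15 ± 0.07 (adjusted p = 0.279, edgeR quasi-likelihood test). Sdhc and Sdhd, the membrane anchors, had 0.05 ± 0.07 and 0.06 ± 0.08. On the TPM scale Sdhc was lower in Cul5 cKO (141 ± 8.25) than in WT (155 ± 26.2 TPM, SD, n = 3 each), within the spread of WT. The high sample was WT replicate 3 at 185 TPM, against 141 and 138 TPM in WT replicates 1 and 2.

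Complex III, the cytochrome bc1 complex, had the highest median of the complexes with more than 1 gene, 0.15, with 8 of 9 subunits above 0 and 4 at an unadjusted p under 0.05. Its nuclear-encoded catalytic subunits, Cyc1 and Uqcrfs1, were among them. Cytochrome b, which comes from the mitochondrial gene mt-Cytb, had -0.09 ± 0.05. Cyc1 (chromosome 15, 76343523 to 76346260), the cytochrome c1 that passes electrons on, was at 189, 179 and 168 CPM in WT and 206, 201 and 207 CPM in Cul5 cKO, at 0.19 ± 0.06 (adjusted p = 0.161, edgeR quasi-likelihood test). In TPM it was 307 ± 48.0 in WT and 293 ± 10.6 in Cul5 cKO (SD, n = 3 each), so its direction differed between the scales. The reversal rested on WT replicate 3. In TPM the WT samples were at 287, 272 and 361 and the Cul5 cKO samples at 304, 284 and 290. Uqcrfs1 (chromosome 13, 30540308 to 30545362), the Rieske iron-sulfur protein, was at 152, 160 and 147 CPM in WT and 173, 168 and 195 CPM in Cul5 cKO, at 0.22 ± 0.08 (adjusted p = 0.173), and here WT replicate 1 was not the highest of WT.

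Uqcrq (chromosome 11, 53427922 to 53430831), a small accessory subunit, had the largest difference of complex III in the edgeR fit. Its level was 96.4, 84.4 and 71.6 CPM in WT and 103, 106 and 108 CPM in Cul5 cKO. The Cul5 cKO samples lay close together above a wide WT group, at 0.32 ± 0.10, a fold of 1.25 (adjusted p = 0.154, edgeR quasi-likelihood test). The core proteins Uqcrc1 and Uqcrc2 had 0.15 ± 0.06 and 0.16 ± 0.07. Uqcr10, the most abundant of the complex, was at 86.0, 71.4 and 78.7 CPM in WT and 87.2, 85.9 and 82.3 CPM in Cul5 cKO, with overlap. Uqcrh, the hinge protein, was equal in the means (76.8 ± 10.3 and 76.8 ± 2.87 CPM, SD, n = 3 each).

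Cytochrome c (Cycs, ENSMUSG00000063694, chromosome 6, 50562563 to 50566538), the carrier between complexes III and IV and a trigger of apoptosis once released, had the largest difference of all members in the edgeR fit. It was at 106, 87.3 and 52.4 CPM in WT and 109, 113 and 124 CPM in Cul5 cKO. The groups did not overlap, but WT replicate 3 was far below the other 5 samples, and the log2 fold change of 0.47 had an interval from -0.04 to 0.97 (adjusted p = 0.267, edgeR quasi-likelihood test). Without WT replicate 3 the value was 0.25, and without WT replicate 1 it was 0.68. The split of reads is uncertain here too, since Gm10053, annotated as protein-coding, shares 946 bases with Cycs and held 56.9% as many counts. Summed with its 5 copies, Cycs was at 164, 138 and 135 CPM in WT and 176, 173 and 188 CPM in Cul5 cKO, at 0.29 ± 0.09 (adjusted p = 0.137), and WT replicate 3 was then level with WT replicate 2.

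Complex IV, cytochrome c oxidase, had 10 of 10 nuclear subunits above 0, with a median of 0.12 and 3 at an unadjusted p under 0.05. Over the 23 alternatives 7 to 10 of the 10 were above 0. Cox7b was below 0 in 9 of them, at -0.10 to -0.15 on counts scaled from TPM, on TPM and on the deposited log2 CPM. Cox5a (ENSMUSG00000000088, chromosome 9, 57521274 to 57532426), a matrix-side subunit, had the smallest p of all 85. It was at 147, 148 and 141 CPM in WT and 180, 166 and 173 CPM in Cul5 cKO. All 3 Cul5 cKO samples were above all WT samples, WT replicate 1 was not set apart, and the log2 fold change was 0.25 ± 0.06, a fold of 1.19 (adjusted p = 0.104, edgeR quasi-likelihood test). Its adjusted p was 0.0435 with DESeq2 and ranged from 0.0273 to 0.31 over the alternatives tried.

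Cox8a, the most abundant subunit of the complex, was at 221, 187 and 190 CPM in WT and 235, 223 and 228 CPM in Cul5 cKO, at 0.20 ± 0.08 (adjusted p = 0.217, edgeR quasi-likelihood test). Cox4i1, the general form of the subunit that sets the response to ATP, was at 223, 217 and 227 CPM in WT and 242, 245 and 248 CPM in Cul5 cKO, at 0.14 ± 0.05 (adjusted p = 0.193). Its groups were narrow and separate. Cox6a1, Cox6b1 and Cox7a2 had 0.11 ± 0.09, 0.06 ± 0.10 and 0.06 ± 0.09, and in each of them WT replicate 1 was above all Cul5 cKO samples. Cox7b was at 95.7, 76.1 and 78.4 CPM in WT and 86.0, 87.7 and 83.5 CPM in Cul5 cKO, at 0.04 ± 0.10.

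Cox7a2l, a relative of Cox7a2 linked to supercomplexes of complexes III and IV, went the other way. It was at 147, 129 and 138 CPM in WT and 129, 130 and 117 CPM in Cul5 cKO. The groups overlapped, and the log2 fold change was -0.14 ± 0.08 (adjusted p = 0.352, edgeR quasi-likelihood test). Its sign held in all 23 alternatives. The difference between Cox7a2l and Cox7a2 was not tested.

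**Figure D5:**
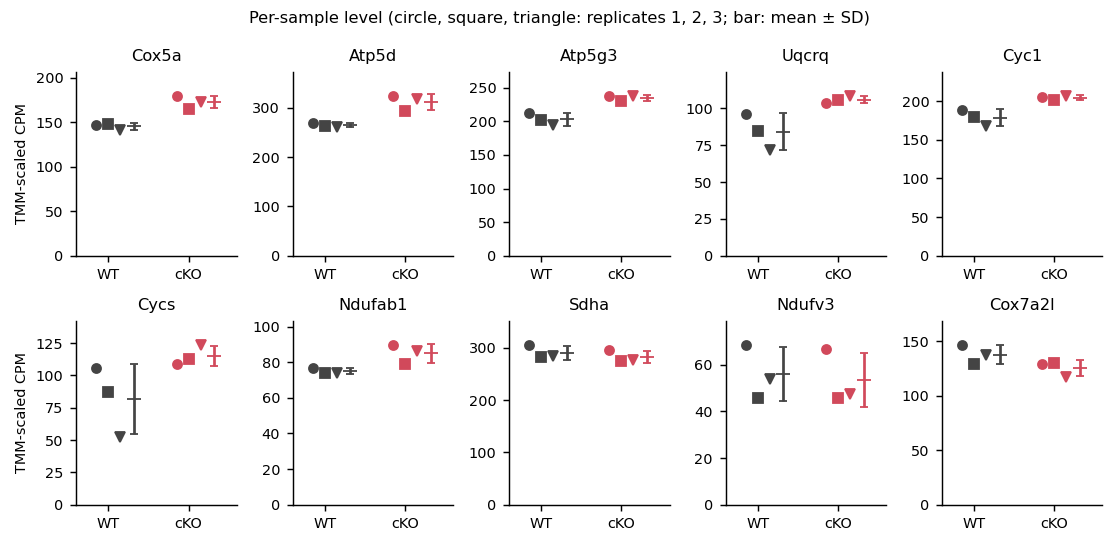
TMM-scaled CPM of 10 genes in each of the 6 samples, from 0, with replicates 1, 2 and 3 as circle, square and triangle and the mean with its SD beside them. Cox5a, Atp5d, Atp5g3, Uqcrq, Cyc1, Cycs and Ndufab1 show no overlap between the groups, while Sdha, Ndufv3 and Cox7a2l overlap.

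Complex V, the ATP synthase, had 13 of 15 subunits above 0, a median of 0.09 and 4 at an unadjusted p under 0.05. The summed TPM of these nuclear subunits was the only such sum of the 5 complexes without overlap, at 6690, 6271 and 5977 TPM in WT and 6888, 6716 and 6718 TPM in Cul5 cKO. Atp5b (chromosome 10, 128083273 to 128090391) was at 1637, 1438 and 1403 CPM in WT and 1744, 1649 and 1728 CPM in Cul5 cKO, at 0.19 ± 0.07 (adjusted p = 0.184, edgeR quasi-likelihood test). Atp5d (chromosome 10, 80138632 to 80145818), the δ subunit of the central stalk, was at 269, 263 and 261 CPM in WT, a narrow group, and 324, 293 and 318 CPM in Cul5 cKO, at 0.24 ± 0.06 (adjusted p = 0.109). It was called with DESeq2 (adjusted p = 0.0476).

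The proton-carrying ring of subunit c comes from 3 genes that differ in the part cut off on import and make the same mature protein. Atp5g1 (chromosome 11, 96068852 to 96075670) was at 158, 155 and 126 CPM in WT and 176, 176 and 187 CPM in Cul5 cKO, at 0.29 ± 0.09 (adjusted p = 0.144, edgeR quasi-likelihood test). The split of reads is uncertain in WT replicate 3, where its copy Gm10039 held 17.97 CPM, against at most 0.65 CPM in any other sample. Summed with this copy, Atp5g1 was at 158, 155 and 144 CPM in WT and 177, 176 and 187 CPM in Cul5 cKO. Its log2 fold change was then 0.24 ± 0.06 (adjusted p = 0.111, edgeR quasi-likelihood test). Atp5g3 (chromosome 2, 73908447 to 73911326), the most abundant of the 3 at 580 TPM, was at 212, 202 and 194 CPM in WT and 238, 230 and 238 CPM in Cul5 cKO, at 0.21 ± 0.06 (adjusted p = 0.12). Atp5g2 was at 18.9, 15.1 and 13.4 CPM in WT and 19.3, 17.8 and 15.6 CPM in Cul5 cKO, at 0.13 ± 0.15. Its level is uncertain, as the pseudogene Gm10175 shares 645 bases and was given 1352% as many counts. Summed with its copies Atp5g2 was at 258, 241 and 243 CPM in WT and 258, 241 and 252 CPM in Cul5 cKO, at 0.02 ± 0.06.

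The peripheral stalk of the ATP synthase (Atp5f1, Atp5h, Atp5j and Atp5o), which holds the head still while the rotor turns, had values from -0.01 to 0.09, and 2 of 4 were above 0. Atp5h was at 130, 98.8 and 97.4 CPM in WT and 108, 106 and 110 CPM in Cul5 cKO. The single high sample was WT replicate 1, and without it the log2 fold change moved from -0.01 to 0.14. The other F1 subunits Atp5a1, Atp5c1 and Atp5e lay between 0.03 and 0.06, and the membrane subunits Atp5j2, Atp5k and Atp5l between 0.07 and 0.14. Outside the complex, Atp5sl, annotated as Dmac2 and linked to the assembly of the complex I membrane arm, was at 26.7, 26.5 and 32.6 CPM in WT and 25.8, 25.4 and 22.0 CPM in Cul5 cKO, at -0.21 ± 0.11 (adjusted p = 0.332, edgeR quasi-likelihood test). It was the lowest log2 fold change of the 85 in the edgeR fit.

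The subunits encoded by mitochondrial DNA lay more often below 0 than above it. Of 13 tested, 0 had an adjusted p under 0.05, 1 was higher and 4 were lower at an unadjusted p under 0.05, 3 were above 0, and the median log2 fold change was -0.09 (edgeR quasi-likelihood test). Of all genes 10.9% were higher and 10.4% lower at the unadjusted threshold. mt-Co1, the catalytic core of complex IV, was at 17383, 14605 and 16800 CPM in WT and 14362, 14271 and 14047 CPM in Cul5 cKO, without overlap, at -0.19 ± 0.07 (adjusted p = 0.184). mt-Nd5 was at 2349, 2050 and 2304 CPM in WT and 1922, 1764 and 1924 CPM in Cul5 cKO, at -0.26 ± 0.07 (adjusted p = 0.117), and mt-Nd3 was at 0.21 ± 0.07 (adjusted p = 0.161). The lowest value was that of mt-Atp8, -0.58 ± 0.32, with 825 CPM in WT replicate 3 and 323 to 387 CPM in all other samples. In TPM mt-Atp8 was 10653 ± 2054 in WT and 10661 ± 319 in Cul5 cKO (SD, n = 3 each). With limma on the deposited log2 CPM its log2 fold change was 0.04. mt-Atp8, mt-Nd4l, mt-Nd5 and mt-Nd6 overlap neighbours on the mitochondrial genome, and reads in the shared bases cannot be assigned with certainty. For 3 of them only the ends are shared. mt-Nd4l ends at 10173 and mt-Nd4 starts at 10167, while mt-Nd5 ends at 13565 and mt-Nd6 starts at 13552. mt-Atp8 ends at 7969 and mt-Atp6 starts at 7927. All 13 were read after poly-A selection. The difference between nuclear and mitochondrial subunits was not tested.

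Other mitochondrial lists gave the setting. In these and the lists that follow, counts are to be read against the shares over all genes. Those were 1.03% at an adjusted p under 0.05, and 10.9% higher and 10.4% lower at an unadjusted p under 0.05 (edgeR quasi-likelihood test). Of 41 further assembly factors tested 0 had an adjusted p under 0.05, 4 were higher and 0 lower at an unadjusted p under 0.05, with a median of 0.09. Sco2, a copper chaperone of complex IV, had the largest value, at 8.71, 11.1 and 11.4 CPM in WT and 13.3, 16.6 and 14.4 CPM in Cul5 cKO (0.53 ± 0.15, adjusted p = 0.122, edgeR quasi-likelihood test). Of 14 genes of mitochondrial biogenesis and mitochondrial DNA expression 0 passed either threshold, with a median of 0.08, and Esrra, a nuclear receptor that acts on respiratory genes, had the largest value, 0.60 ± 0.32, with WT samples at 21.4, 9.21 and 24.3 CPM. Of 20 genes of the TCA cycle and pyruvate entry 0 had an adjusted p under 0.05 and 5 were higher at an unadjusted p under 0.05, with a median of 0.10, and Cs, citrate synthase, had 0.29 ± 0.06 (adjusted p = 0.0808).

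Of 10 carriers and outer membrane proteins, 1 had an adjusted p under 0.05 and 7 were higher at an unadjusted p under 0.05, with a median of 0.25. Vdac2, an anion channel of the outer membrane, was at 287, 269 and 267 CPM in WT and rose to 343, 361 and 365 CPM in Cul5 cKO (0.38 ± 0.06, adjusted p = 0.0388, edgeR quasi-likelihood test), and Tomm20, an import receptor, had 0.40 ± 0.12 (adjusted p = 0.132). Of 8 HIF-linked regulators of respiration tested, 1 had an adjusted p under 0.05, 4 were higher and 2 lower at an unadjusted p under 0.05, and the median was 0.27. Egln3, a prolyl hydroxylase, rose from 84.7, 67.1 and 67.3 CPM to 171, 159 and 171 CPM (1.19 ± 0.10, adjusted p = 0.0105). Hif1a had 0.49 ± 0.10 (adjusted p = 0.0724), while Bnip3l, a mitophagy receptor, and Pdk1, a kinase that restrains pyruvate dehydrogenase, had -0.53 ± 0.17 and -0.18 ± 0.06 (adjusted p = 0.155 and 0.17, edgeR quasi-likelihood test). Vdac2 lost its call in 9 of 23 alternatives. It kept it without WT replicate 1 but not without any other sample (adjusted p between 0.0554 and 0.182), and it was not called on counts scaled from TPM, on the deposited log2 CPM or on TPM (adjusted p between 0.219 and 0.268), with a log2 fold change down to 0.23. Egln3 lost it when WT replicate 2, WT replicate 3 or the third Cul5 cKO sample was left out (between 0.0754 and 0.0789). With DESeq2 2 of the TCA cycle genes were called higher (Cs at an adjusted p of 0.00733 and Mdh2 at 0.0154), as were 4 of the carriers and outer membrane proteins (Vdac2, Tomm20, Tomm40 and Timm23) and 2 HIF-linked genes (Egln3 and Hif1a), and Bnip3l was called lower. Of all genes 2.79% were called higher with DESeq2. With limma on the deposited log2 CPM Egln3 was the only one called in these lists.

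Promoters of respiratory genes are known for sites of NRF1, of ETS factors such as GABPA (also named NRF2), of YY1 and of the receptor ERRα. RefSeq (GRCm38.p6) gave 78 promoters for 72 of the 85 genes, and the 250 bases before each start were searched on both strands. The NRF1 letters (GCGC, any base, TGCGC) were in 19.2% of the member promoters, against 3.74% of all 32851 promoters and 7.94% of the promoters of genes tested in the fit. The ETS letters CCGGAAG were in 16.7% (6.91% of all, 13.4% of tested), the YY1 letters ATGGCGG in 8.97% (2.21% and 3.72%), and the ERRα letters AAGGTCA in 6.41% (4.08% and 2.76%). The hypoxia response letters ACGTG were in 24.4%, against 16.6% of all and 21.6% of tested promoters. The GC box letters GGGCGG went the other way against tested genes, at 35.9% of member promoters, 32.7% of all and 56.1% of tested promoters. The median log2 fold change was 0.07 for the 14 members with an NRF1 match and 0.10 for members with a promoter lacking it. For YY1 it was 0.01 for the 6 with a match and 0.10 for members with a promoter lacking it. Members with more than 1 promoter could count on both sides, as did Atp5c1 for NRF1 and Atp5j, Atp5sl and Ndufa5 for YY1. For the ETS, ERRα, GC box and hypoxia response letters the medians of those with a match were 0.06, 0.10, 0.09 and 0.115. These differences were not tested. Windows of 60 bases are shown for a member of each of the assembly factors and complexes III, IV and V to let the matches be seen in place, with the matched letters, or their reverse complement, in capitals, read on the strand of the gene. None touches an annotated exon. The first is on the plus strand at chr4:24897945-24898004, and the next, on the minus strand, are at chr5:115349041-115349100, chr10:80406854-80406913 and chr2:73911345-73911404. A match is a description of the letters and not a site in use.
Ndufaf4, NRF1, starting 113 bases before the start: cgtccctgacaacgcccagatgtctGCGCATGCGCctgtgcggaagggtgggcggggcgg
Cox6a1, NRF1, starting 117 bases before the start: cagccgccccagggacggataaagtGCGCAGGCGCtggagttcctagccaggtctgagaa
Uqcr11, ETS, starting 66 bases before the start: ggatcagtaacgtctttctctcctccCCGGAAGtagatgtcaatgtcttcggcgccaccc
Atp5g3, ERRα, starting 52 bases before the start: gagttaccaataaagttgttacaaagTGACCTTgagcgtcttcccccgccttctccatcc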

How the data were processed

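RNA-seq of 3 WT and 3 Cul5 cKO samples was used, grouped by the labels. Per the study's methods, libraries of poly-A RNA were read as 50 base single ends on a BGIseq500, and the authors pseudo-aligned them to mouse transcripts (GRCm38) with kallisto 0.46.2. The deposited files hold, for each sample, estimated counts and TPM per transcript. A deposited gene-level table of log2 CPM (TMM, edgeR 3.34.0) defined the members, and its columns of fold changes and p-values were not used. Estimated counts were summed by gene with GENCODE vM21 (97.7% of transcripts matched, and unmatched ones held 0.958% to 1.04% of counts), rounded, and filtered by filterByExpr. Genes were tested with edgeR 4.0.16 (TMM, quasi-likelihood, genotype as the only term) and adjusted by Benjamini-Hochberg over 12925 genes. DESeq2 1.42.0 and limma 3.58.1 were alternatives, and the edgeR test and the length offsets were tried on simulated data with known changes. For limma on TPM, 1 or 0.1 was added before the log2. Intervals are 95%.

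Members sharing reads with copies were found with blastn 2.17.0 (at least 95% identity over 150 bases and 50% of the transcript of the copy). This held for 30 members, 5 of them with a copy at 10% or more of their counts. Values after ± are the SE of a fold change or the SD of a level. The members and lists were chosen with earlier results of these data known. Subgroups within complexes III and V follow their known structure and were formed after the values were seen. Genes described sample by sample were those highest or lowest in TPM or in fold change within a complex, the subunits with tissue forms and, chosen after their values were seen, Ndufs7, Ndufaf4, Cyc1, Uqcrfs1, Atp5d and Atp5sl, and, of the mitochondrial genome, mt-Co1, mt-Nd5 and mt-Nd3. Hif1a, Bnip3l, Pdk1, Mdh2, Cd3e, Cd3g and Hbb-bt, and the lists' calls by other tools, were also chosen after their values were seen. With 3 samples a group, counts were the measure of depth, and WT replicate 3 limits the precision of low members. Values of some members are not reported here one by one.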

Additional observations from a re-analysis of the deposited data

How the results depend on the processing

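The number of genes called (133) was 693 with DESeq2, 228 without a filter, 58 on counts scaled from TPM, 42 with limma on the deposited log2 CPM, 27 and 30 with limma after adding 1 and 0.1 to TPM, 1688 with replicate 1 as a term, 1153 with replicates 2 and 3 alone, and 2 (without WT replicate 2 or 3) to 316 (without WT replicate 1) when 1 sample was left out, with 45 and 3 without Cul5 cKO replicates 2 and 3. The number of members called higher (0) was 2 with DESeq2, 4 with replicate 1 as a term and 5 with replicates 2 and 3 alone, and it was 0 in the other alternatives. The number called lower was 0 in all 23. The median log2 fold change of the members stayed above 0 in all 23, between 0.03 (without WT replicate 2) and 0.19 (without WT replicate 1). Cul5 kept its direction and its call in all 23.

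Same-numbered samples deviated together with correlations of 0.37, 0.21 and 0.02 across genes, the last under 0.1. WT replicate 3 correlated best with Cul5 cKO replicate 2 (0.09), and the numbers were not taken to pair the samples. WT replicate 1 correlated at -0.27 and -0.19 with Cul5 cKO replicates 2 and 3. WT replicate 3 held only 3944803 counts, so its low correlations cannot decide whether the samples were paired. With the replicate block 848 genes were called, 1142 with length offsets and the block and 910 with GC offsets and the block, and 0 members in each.

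Of 24 members named by the rule, 7 changed sign under some alternative, all with small values, and the cause was not tested. On counts scaled from TPM, limma on the deposited log2 CPM, and limma on TPM with 1 and with 0.1 added, Ndufv3 had 0.038, 0.041, 0.021 and 0.021, Uqcrh 0.038, 0.039, 0.019 and 0.020, Sdhc -0.074, -0.10, -0.12 and -0.12, and Cox7b -0.10, -0.13, -0.15 and -0.15. Sdha was 0.025 with limma on log2 CPM. Without a filter Uqcrh had 0.0092 and Atp5h 0.0049, and with replicates 2 and 3 alone 0.076 and 0.14. Cox7b was -0.0086 with library size alone, -0.0061 with length offsets and -0.0023 with length offsets and the replicate block, where Sdhc was -0.00024, and Uqcrh was 0.0012 with GC offsets and the replicate block. With 1 sample left out, Ndufv3 ranged from -0.27 to 0.12, Uqcrh from -0.079 to 0.11, Atp5h from -0.082 to 0.14, Sdha from -0.071 to 0.0014, Cox7b from -0.031 to 0.16, and Cox6b1 from -0.00048 to 0.19.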
